A study of Mus musculus with 18 samples.

Results

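The cytosolic ribosomal proteins are described here, as 73 genes of the 23420 in the tables, 44 of the large and 29 of the small ribosomal subunit. They were chosen by name (Rpl or Rps followed by a number, or Rplp0 to Rplp2, with or without a closing a, x or l) and by a mean value of at least 50 in each of 3 tables. The name alone fitted 79 genes. RNA-seq had been performed on whole lungs of mouse embryos at 14.5 days post coitus (dpc), with 3 samples in each of 6 groups. Rptor-deficient lungs (Rptorf/f; ShhCre/+) were compared with Rptorf/+; ShhCre/+ controls, Tfam-deficient lungs (Tfamf/f; ShhCre/+) with Tfamf/+; ShhCre/+ controls, and Cox10-deficient lungs (Cox10f/f; ShhCre/+) with Cox10f/+; ShhCre/+ controls. All 18 samples therefore carried Cre and at least 1 floxed allele, the controls were not wild type, and Cre expressed from the Shh locus acts in the lung epithelium, which is only one of the tissues in a whole lung. Rptor encodes the Raptor subunit of mTOR complex 1 (mTORC1), Tfam a factor that maintains mitochondrial DNA, and Cox10 an enzyme that makes the heme of cytochrome c oxidase.

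Ribosomal proteins assemble with ribosomal RNA into the subunits that translate mRNA, at about equal numbers of each protein, and their mRNAs are among the most abundant of a cell. Most of these mRNAs begin with a C followed by a run of pyrimidines, the 5′ terminal oligopyrimidine (TOP) motif, through which mTORC1 controls their translation, while Myc proteins and growth control their transcription along with that of the factors that build ribosomes. mTORC1 also leads to phosphorylation of the Rps6 protein by S6 kinase, a common readout of the pathway. Of these layers only mRNA levels were measured here.

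The TOP motif was looked for in the reference sequence around the annotated start sites. The windows below, from RefSeq for GRCm38.p6, span 20 bases before and 20 bases from the annotated start on, in the direction of the transcript. Capitals mark the longest run of C and T in each window. They are shown for Rps6 and the stalk gene Rplp2, which have the motif at the annotated start, and for 7 of the 8 members that passed in Rptor-deficient lungs (Rps14 is not shown). Rps6 lies at chr4:86857348-86857387 on the minus strand and Rplp2 at chr7:141447631-141447670 on the plus strand. Of members higher in Rptor-deficient lungs, the window of Rpl13a is chr7:45128726-45128765 on the minus strand, that of Rps7 chr12:28635934-28635973 on the minus strand, that of Rps3 chr7:99483690-99483729 on the minus strand and that of Rpl22, the first of its annotated starts, chr4:152324416-152324455 on the plus strand. Of members lower there, the window of Rpl34 is chr3:130730318-130730357 on the minus strand, that of Rps27l chr9:66946066-66946105 on the plus strand and that of Rps25 chr9:44407694-44407733 on the plus strand.
Rps6: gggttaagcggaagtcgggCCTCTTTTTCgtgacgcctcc
Rplp2: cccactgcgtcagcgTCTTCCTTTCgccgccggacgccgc
Rpl13a: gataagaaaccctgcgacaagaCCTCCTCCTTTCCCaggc
Rps7: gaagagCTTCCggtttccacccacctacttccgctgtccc
Rps3: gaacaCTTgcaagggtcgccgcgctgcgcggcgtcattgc
Rpl22: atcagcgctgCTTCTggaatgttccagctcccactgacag
Rpl34: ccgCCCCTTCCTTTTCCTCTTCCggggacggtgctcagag
Rps27l: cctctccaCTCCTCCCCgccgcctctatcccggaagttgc
Rps25: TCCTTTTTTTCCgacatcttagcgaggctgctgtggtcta
Start sites were found in RefSeq for 54 of the 73 members. A run of at least 8 C or T bases, read on the transcript strand only, was in the window of 28 of the 54 (51.9%), against 18.4% of all 27025 genes with a start site. A C at the annotated start followed by 4 C or T bases was found for 12 of the 54 members (22.2%) and for 3.01% of all genes. A motif that lies a few bases from the annotated start, as in Rpl13a, is not counted by the second measure.

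Values are normalised reads, scaled by 1 factor per sample, and samples summed to between 27727202 and 29611064. Controls were littermates of deficient embryos according to the methods of the study, but which samples share a litter is not given in the sources used here, so p-values measure only the spread between these samples. Samples were checked for the cells they held, since fewer cells of a type and less RNA per cell cannot be told apart in a whole lung. No epithelial, mesenchymal or endothelial marker was at 0 in any sample. Among samples of the Rptor line 9 of 10 epithelial markers passed the test as lower, and the sum of all 10 was 19781 to 25807 in Rptor-deficient lungs, against 48449 to 54422 in controls. At the same time 5 of 5 tested macrophage markers, 5 of 10 mesenchymal and 5 of 6 endothelial markers were higher and 8 of 8 proliferation markers were lower. The summed epithelial markers were also lower in Tfam-deficient lungs (31287 to 35363, against 43956 to 45157; 4 of 10 passed) and in Cox10-deficient lungs (21166 to 30588, against 33208 to 33817; 2 of 10 passed). Of 4 smooth muscle markers, 3 were lower in Tfam-deficient lungs and the sum of all 4 was 15591 to 18319, against 20606 to 23824 in controls, and in Rptor-deficient lungs 3 were lower and 1 higher while the sums overlapped. Their sum was also lower without overlap in Cox10-deficient lungs (8162 to 12006, against 12021 to 14003), where none passed in limma and 3 had an unadjusted p below 0.05. Proliferation markers summed to less in Tfam-deficient lungs (69392 to 74375, against 77058 to 82727), where 0 of 8 passed in limma and 4 had an unadjusted p below 0.05. Of markers of heart, liver, thymus and skeletal muscle, 2 of 6 tested were higher in Rptor-deficient lungs (Myh7 and Afp), 1 of 8 in Tfam-deficient lungs (Nppa) and 0 of 7 in Cox10-deficient lungs (limma; 0 at an unadjusted p below 0.05). Their sums overlapped in each line and were highest in Tfam deficient replicate 1, at 11507, against 2278 to 6671 in its controls. The part of these shifts in the values of ribosomal protein genes was not tested. Rptor, Tfam and Cox10 themselves overlapped between deficient and control lungs of their own lines.

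Ribosomal protein genes were among the highest genes per transcript length. In controls of the Rptor line their median was 22692 reads per kilobase of transcript, where the median of all genes above 0 was 173, and 54 of the 73 were among the 100 highest of 22244 genes with a known length. The corresponding numbers were 43 in the Tfam and 49 in the Cox10 line. Lengths are medians over the annotated transcripts of a gene, and for Rps15a and Rps20 they were 5130 and 3706 bases. These genes ranked 736 and 460 in the Rptor line controls, so such ranks depend on the annotation. The median per kilobase was 20853 for large-subunit and 28829 for small-subunit genes in the Rptor line controls. The values spread over a wide range, however. On this scale Rpl13a was the highest in the Rptor line controls, at 63845 reads per kilobase, and Rpl34 the lowest, at 305. By normalised reads Rplp0, the base of the ribosomal stalk, was the highest member, at 66191 ± 2106 (SD, n = 3) in the same controls.

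Some genes of the ribosome fell outside the mean of 50 or just inside it. Rpl26 was listed at 0 in all 18 samples and so was Rpl10l, a paralogue known from testis. Rpl30 had table means of 108 (Rptor), 32.4 (Tfam) and 109 (Cox10), and Rps27 means of 62.7, 52.9 and 48.8. Rpl3l and Rpl39l, paralogues with restricted expression, had means of at most 3.98. Just inside the limit stood Rpl34, with means of 156, 86.3 and 190, followed by Rps27l and Rpl29, whose lowest table means were 686 and 2032. Rpl26, Rpl30 and Rpl34 are parts of every ribosome, so their levels stand far below those of their partners. Rps27 stood low as well, while its paralogue Rps27l had a lowest table mean of 686. Coding sequences at least 95% identical over at least 90% of their length were found in 6 other annotated genes for Rpl26, 12 for Rpl30, 4 for Rps27 and 5 for Rpl34, and how reads that match several genes were treated is not given in the sources used here. The levels of these genes are therefore uncertain.

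To ask whether loss of Rptor changed the mRNAs of the ribosome, Rptor-deficient lungs were compared with their controls. Few of the ribosomal protein genes passed the test, in both directions. In a limma fit over all 14940 genes tested, 5 of the 73 passed as higher and 3 as lower at an adjusted p below 0.05, 11% of the members, where 34.8% of all genes passed, 16.6% as higher and 18.2% as lower. With an unadjusted p below 0.05 there were 11 higher and 7 lower members, while 45.6% of all genes passed, 22.3% as higher. A positive fold change was found for 48 of 73 members and for 51% of all genes. Their median log2 fold change was 0.033, against 0.0083 over all genes, and their quartiles were -0.069 and 0.11, against -0.20 and 0.25 for all genes. Without deficient replicate 3 the median was -0.016. For 21 of 73 members deficient and control values were fully separate, as they were for 50.3% of all genes. Same-numbered samples of this line deviated together, and with the replicate number as a block 9 members passed as higher and 5 as lower, where 38.6% of all genes passed. The 5 higher members became 2 or 3 without any 1 of the controls or without deficient replicate 2 or 3, where 24% to 28.6% of all genes passed. The 3 lower members became 7 without deficient replicate 1, where 36% of all genes passed. Each fold change is given on the log2(value + 1) scale.

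**Figure D1:**
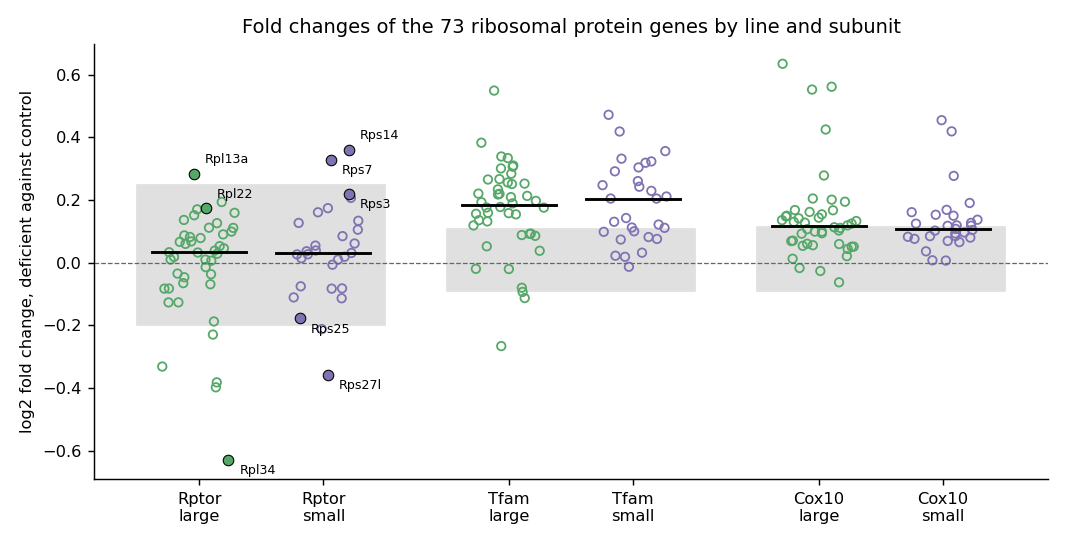
Log2 fold change (deficient against control, y axis) of each of the 73 genes, by line and subunit (x axis). Filled points passed limma at an adjusted p below 0.05, black bars are medians and grey bands span the quartiles of all genes tested. Medians lie at 0.033 and 0.031 for the large and small subunits (Rptor line), 0.18 and 0.20 (Tfam line) and 0.12 and 0.11 (Cox10 line), and filled points occur in the Rptor line only.

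The members that rose in Rptor-deficient lungs included 3 of the small subunit. Rps14, a protein of the small-subunit platform whose loss causes the anaemia of 5q deletions, had 32158, 27069 and 30428 normalised reads in controls and 35480, 39356 and 40036 in Rptor-deficient lungs. The difference on the log2 scale was 0.36 (SE 0.079; adjusted p in limma = 0.0092). All deficient values lay above all control values.

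Rps7, needed to process the small-subunit RNA and one of the genes of Diamond-Blackfan anaemia, had 18534, 18981 and 18309 in controls and 22196, 22483 and 25517 in Rptor-deficient lungs. It rose by 0.33 on the log2 scale (SE 0.065; adjusted p in limma = 0.0057), again without overlap. Rps3, which lines the mRNA entry channel, had 37039, 34605 and 38187 in controls and 40663, 40807 and 46614 in deficient lungs. Its rise of 0.22 (SE 0.073; adjusted p in limma = 0.046) was close to the threshold and did not pass in 5 of the 6 fits that each leave out 1 sample, the exception being the fit without deficient replicate 1, nor with trimmed-mean scaling (adjusted p in limma = 0.051) or without a filter on low values (0.062).

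Of the large subunit, Rpl13a, which leaves the ribosome to silence mRNAs in interferon-treated cells, had 51732, 45832 and 50110 in controls and 55257, 57956 and 66873 in Rptor-deficient lungs. The rise was 0.28 on the log2 scale (SE 0.085; adjusted p in limma = 0.032). Rpl22, at the exit of the peptide tunnel, had 12672, 12313 and 12306 in controls and 14047, 13461 and 14557 in deficient lungs, a rise of 0.17 (SE 0.051; adjusted p in limma = 0.030). Neither gene overlapped between the groups, and deficient replicate 3 was the highest sample for both. Rpl13a did not pass without any 1 of the 3 controls or without deficient replicate 2 or 3 (adjusted p 0.050 to 0.12), and Rpl22 did not pass without any 1 of the controls or without deficient replicate 3 (adjusted p 0.063 to 0.094), nor in 1 fit of all 18 samples (adjusted p in limma = 0.17). The rises of Rps14 and Rps7 passed in all 6 fits without 1 sample.

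The 3 members that fell came from both subunits. With the replicate block Rpl7a (log2 fold change -0.40, SE 0.075; adjusted p in limma = 0.0056) and Rplp1 also passed as lower. Neither passed as first fitted, and Rpl7a had an SD of log2 values within groups of 0.34. Rps27l, a paralogue of Rps27 known as a target of p53, had 2394, 2134 and 2273 normalised reads in controls and 1784, 1757 and 1765 in Rptor-deficient lungs. The change was -0.36 on the log2 scale (SE 0.060; adjusted p in limma = 0.0027), the smallest adjusted p of all members. No annotated gene had a coding sequence at least 95% identical to that of Rps27l.

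Rps25, a protein of the small-subunit head that internal ribosome entry sites need, had 17282, 17467 and 16426 in controls and 15327, 15030 and 14889 in Rptor-deficient lungs. The change was -0.18 on the log2 scale (SE 0.050; adjusted p in limma = 0.025). The groups did not overlap, but with each sample's trend on length and GC content removed the change was -0.095 (adjusted p in limma = 0.17). It also lost the threshold without control replicate 1 or 2 or without deficient replicate 2 or 3 (adjusted p in limma 0.065 to 0.082).

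Rpl34 had 187, 204 and 179 in controls and 111, 130 and 127 in Rptor-deficient lungs, a change of -0.63 (SE 0.13; adjusted p in limma = 0.0066), and its low level makes it the uncertain case described above. Rpl30, outside the mean of 50, showed the same kind of values. It had 118, 154 and 118 in controls and 80.6, 86.2 and 90.9 in deficient lungs (log2 fold change -0.58, SE 0.16; adjusted p in limma = 0.022). The falls of Rps27l and Rpl34 passed in all 6 fits without 1 sample. All 3 members that fell had a pyrimidine run of at least 8 bases in the windows above, as did Rpl13a, 1 of the 4 members that rose and had a start site. The runs of Rps27l and Rps25 lay wholly before the annotated start. None of the members that fell had a C followed by 4 pyrimidines at an annotated start. Rpl34 and Rps27l each had another annotated start, with longest runs of 8 and 4 bases. The 28 members with such a run had a median log2 fold change of 0.019 in the Rptor line and the 26 with a shorter run 0.039, so that both medians were small.

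**Figure D2:**
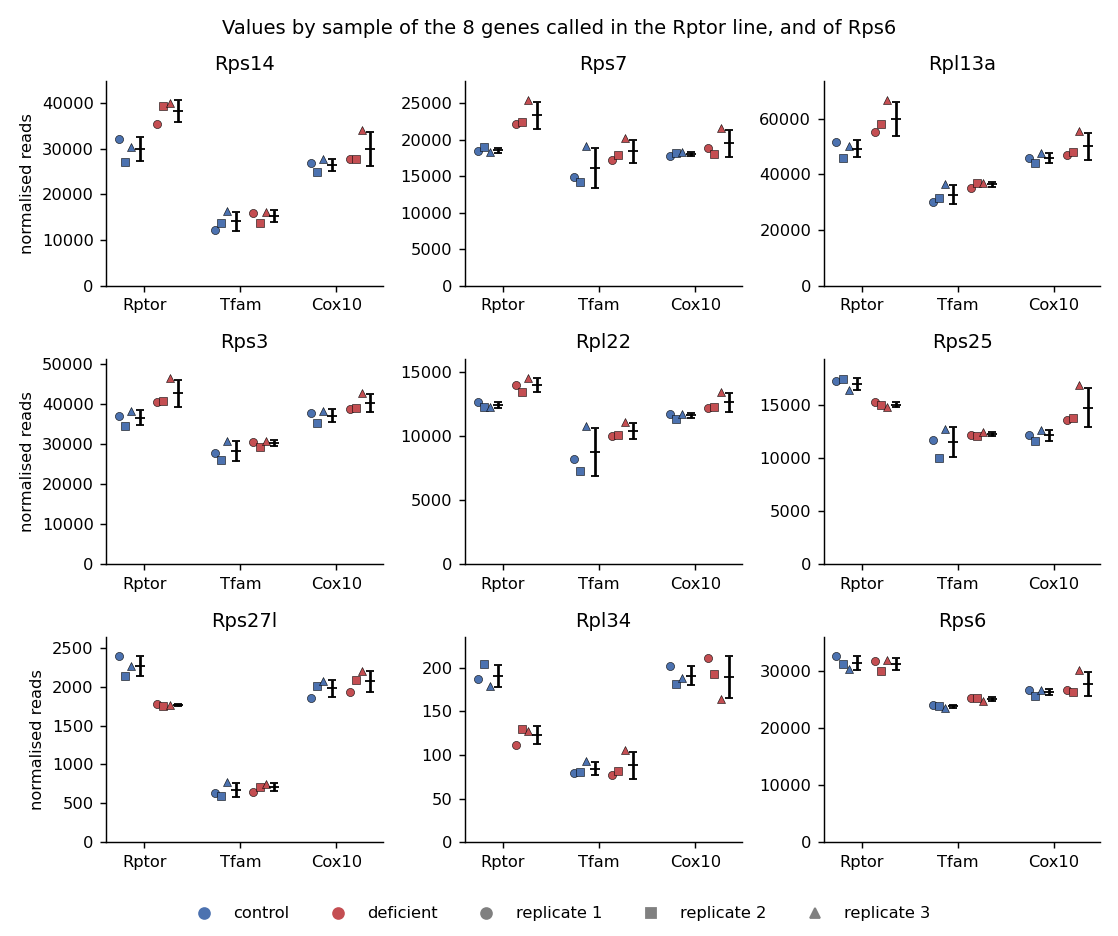
Normalised reads (y axis, from 0) in every sample of the 3 lines (x axis) for the 8 genes that passed in the Rptor line and for Rps6. Blue points are controls, red points deficient lungs, shapes give the replicate number and black bars the mean ± SD (n = 3). In the Rptor line the first 8 genes show no overlap between groups and Rps6 overlaps.

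Rps6, whose protein is phosphorylated downstream of mTORC1, had 32568, 31208 and 30255 normalised reads in controls and 31656, 30029 and 31922 in Rptor-deficient lungs. The groups overlapped (log2 fold change -0.0064, SE 0.056; adjusted p in limma = 0.94). In the Tfam line Rps6 had 24020, 23903 and 23496 in controls and 25218, 25289 and 24669 in deficient lungs (log2 fold change 0.074, SE 0.059; adjusted p in limma = 0.57), and in the Cox10 line the log2 fold change was 0.076 (SE 0.069; adjusted p in limma = 0.64).

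The proteins with special positions in the ribosome were examined next. The stalk, which recruits the elongation factors, is built from Rplp0, Rplp1 and Rplp2 on Rpl12. Rplp1 had 32125, 29528 and 32500 in controls and 27578, 24034 and 28887 in Rptor-deficient lungs, without overlap, but missed the threshold (log2 fold change -0.23, SE 0.079; adjusted p in limma = 0.051). It passed with the replicate block (adjusted p in limma = 0.015). Its partner Rplp2 had a log2 fold change of 0.090 (SE 0.080; adjusted p in limma = 0.41), Rplp0 one of -0.037 (SE 0.075; adjusted p in limma = 0.74) and Rpl12 one of 0.010 (SE 0.057; adjusted p in limma = 0.91). Rpl5 and Rpl11, which carry the 5S RNA and bind Mdm2 when assembly fails, had log2 fold changes of 0.11 (SE 0.056; adjusted p in limma = 0.16) and 0.19 (SE 0.077; adjusted p in limma = 0.083). In both the deficient values lay above the control values, and both passed as higher with the length and GC trend removed (adjusted p in limma 0.046 for Rpl5 and 0.018 for Rpl11). Rpl11 also passed with Xist, a measure of sex, as a covariate (adjusted p in limma = 0.027). Rps27a, made as a fusion with ubiquitin, had a log2 fold change of -0.082 (SE 0.054; adjusted p in limma = 0.27). None of the 4 stalk genes, Rpl5, Rpl11 or Rps27a passed in the Tfam or Cox10 line in limma as first fitted. With the length and GC trend removed and the replicate block, Rpl12 (adjusted p in limma = 0.025) and Rpl5 (0.042) passed as higher in Tfam-deficient lungs, where 7.39% of all genes passed. Replicate numbers did not pair the samples of the Tfam line, however (correlations of deviations -0.312, -0.207 and 0.151).

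Some ribosomal proteins have symbols outside the name rule. Of 7 such genes tested, among them Rpsa, Rps3a1, Fau and Rpl22l1, only Rpl36al passed in the Rptor line, a share of 14.3% where 34.8% of all genes passed. It had 3551, 3020 and 3323 in controls and 2509, 2470 and 2972 in Rptor-deficient lungs (log2 fold change -0.32, SE 0.088; adjusted p in limma = 0.023). None of the 7 passed in the Tfam or the Cox10 line at an adjusted p below 0.05 in limma, where 0 and 2 of them had an unadjusted p below 0.05.

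The factors that build ribosomes moved otherwise. Of 65 ribosome biogenesis genes tested in the Rptor line, 50 were lower and 0 higher in Rptor-deficient lungs at an adjusted p below 0.05 (76.9%, where 34.8% of all genes passed, 18.2% as lower; limma; 55 lower and 0 higher at an unadjusted p below 0.05), with a median log2 fold change of -0.36. The 8 proliferation markers, all lower there, had a similar median of -0.37. The part of proliferation and of cell content in the values of the biogenesis genes was not tested. Rrp12, needed to export the subunits, had 1646, 1513 and 1573 in controls and 912, 967 and 897 in deficient lungs (log2 fold change -0.77, SE 0.065; adjusted p in limma = 1.4e-04). Gar1, of the particles that modify ribosomal RNA, fell by 0.70 on the log2 scale (SE 0.11; adjusted p in limma = 0.0025). The biogenesis genes held 0.879%, 0.923% and 0.913% of the total in controls and 0.698%, 0.738% and 0.713% in Rptor-deficient lungs. The 73 ribosomal protein genes held 4.97%, 4.85% and 4.97% in the same controls and 5.01%, 4.997% and 5.40% in the deficient lungs. For each read of a biogenesis gene, controls thus had 5.45 ± 0.197 reads of ribosomal protein genes, and Rptor-deficient lungs had 7.17 ± 0.40 (SD, n = 3 for both), without overlap. None of the 65 passed in the Tfam or Cox10 line in limma, where 2 and 9 had an unadjusted p below 0.05, all lower, against 17.4% of all genes in the Tfam and 13% in the Cox10 line. In the Cox10 line 59 of the 65 were negative, with a median of -0.11, and the reads of ribosomal protein genes per biogenesis read were 4.61, 4.36 and 4.56 in controls and 4.997, 4.79 and 6.59 in deficient lungs, again without overlap. This ratio overlapped between groups in the Tfam line (5.77 ± 0.313 in controls, 6.32 ± 0.281 in deficient lungs). Of 76 mitochondrial ribosomal protein genes, which build the separate ribosome of mitochondria, 35 were lower and 0 higher in Rptor-deficient lungs (52 lower and 0 higher at an unadjusted p below 0.05), with a median log2 fold change of -0.21, where 34.8% of all genes passed. In the Tfam and Cox10 lines 0 of the 76 passed in limma (4 and 6 at an unadjusted p below 0.05, all lower), with medians of 0.0014 and -0.050.

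Other genes of the pathway were taken as lists. In the following 3 lists the share that passed with Rptor deleted is to be read against the 34.8% of all genes. Of 16 non-ribosomal genes with TOP mRNAs, 3 were higher and 4 lower in Rptor-deficient lungs (43.8%), not far from that share. Eef2, the elongation factor that moves the ribosome along the mRNA, rose from 91038, 93884 and 98832 to 123256, 106561 and 122255 normalised reads (log2 fold change 0.31, SE 0.080; adjusted p in limma = 0.017), and Tpt1 rose by 0.20 (SE 0.057; adjusted p in limma = 0.028). Btf3 and Naca, both subunits of the complex that receives new peptides at the ribosome, fell by 0.28 (SE 0.063; adjusted p in limma = 0.0092) and 0.26 (SE 0.072; adjusted p in limma = 0.023) on the log2 scale. Of 15 genes that act around S6 kinase and the eIF4E-binding proteins, 1 was higher and 6 were lower (46.7%). Pdcd4, an inhibitor of eIF4A that S6 kinase removes, rose by 0.46 (SE 0.050; adjusted p in limma = 4.0e-04). Eif4e, the cap-binding factor, had 6139, 6107 and 5974 in controls and 4201, 4321 and 4264 in Rptor-deficient lungs (log2 fold change -0.51, SE 0.046; adjusted p in limma = 1.8e-04), and Eif4a1 fell by 0.36 (SE 0.051; adjusted p in limma = 0.0013). Of 8 Myc family genes tested, 3 passed (37.5%), near the share of all genes. Mycn fell by 0.35 (SE 0.068; adjusted p in limma = 0.0051), while Mxd4 and Mxd1, which oppose Myc proteins, rose by 0.34 (SE 0.076; adjusted p in limma = 0.0095) and 0.32 (SE 0.097; adjusted p in limma = 0.034). In the Tfam line Eif4ebp1, which blocks eIF4E, rose by 0.50 (SE 0.061; adjusted p in limma = 8.9e-04), and in the Cox10 line Hnrnpa1 fell by 0.34 (SE 0.050; adjusted p in limma = 0.037). These were the only genes of the 3 lists that passed there.

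To ask the same of a loss of mitochondrial function, Tfam-deficient lungs were compared with their controls. None of the ribosomal protein genes passed the threshold, and their share of the total overlapped between the groups. Their median log2 fold change was 0.19, against 0.00098 over all genes, and 66 of 73 were positive, where 50.3% of all 15053 genes were. None of the 73 passed at an adjusted p below 0.05 in limma, where 4.66% of all genes passed, 2.03% as higher and 2.63% as lower. An unadjusted p below 0.05 was reached by 14 members, all higher, where 17.4% of all genes reached it and 8.29% as higher. Values did not overlap for 6 members, and for 22.8% of all genes. Rpl35a, chosen after its values were seen, came closest, with 2603, 1913 and 2506 in controls and 3032, 3000 and 3041 in Tfam-deficient lungs (log2 fold change 0.38, SE 0.099; adjusted p in limma = 0.056).

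Control replicate 3 of this line stood apart. The members held 3.92% and 3.86% of the total in control replicates 1 and 2 but 4.74% in control replicate 3, which lies among the 4.67%, 4.54% and 4.83% of the deficient lungs. Control replicate 3 was the highest of the 3 controls for 59 of 73 members, and for 36.7% of all genes. Its epithelial markers summed to 43956, near the 45157 and 44343 of the other controls. Rps29 shows the pattern, with 3866, 3304 and 7149 in controls and 6039, 5350 and 7538 in Tfam-deficient lungs (a gene chosen after its values were seen).

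Without control replicate 3, 39 of the 73 members passed as higher and 0 as lower, 23 of the large and 16 of the small subunit, where 7.46% of all genes passed, and the median log2 fold change was 0.28. With the length and GC trend removed as well, an alternative chosen after seeing the data, 32 passed as higher and 0 as lower, where 9.51% of all genes passed, and the median was 0.20. In the fit without control replicate 3 alone Rps29 had a log2 fold change of 0.81 (SE 0.12; adjusted p in limma = 0.00485). Each of the other 5 fits without 1 sample gave 0 calls, with medians between 0.12 and 0.22. With the replicate number as a block 11 members passed as higher, where 5.33% of all genes passed, though replicate numbers did not pair the samples of this line. So the count of members that rose in Tfam-deficient lungs depended on whether 1 control sample was included. Rplp2, Rpl5, Rpl11 and Rpl12 were among the members that passed without it, with log2 fold changes of 0.52, 0.47, 0.41 and 0.35 (adjusted p in limma 0.0045 to 0.032).

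**Figure D3:**
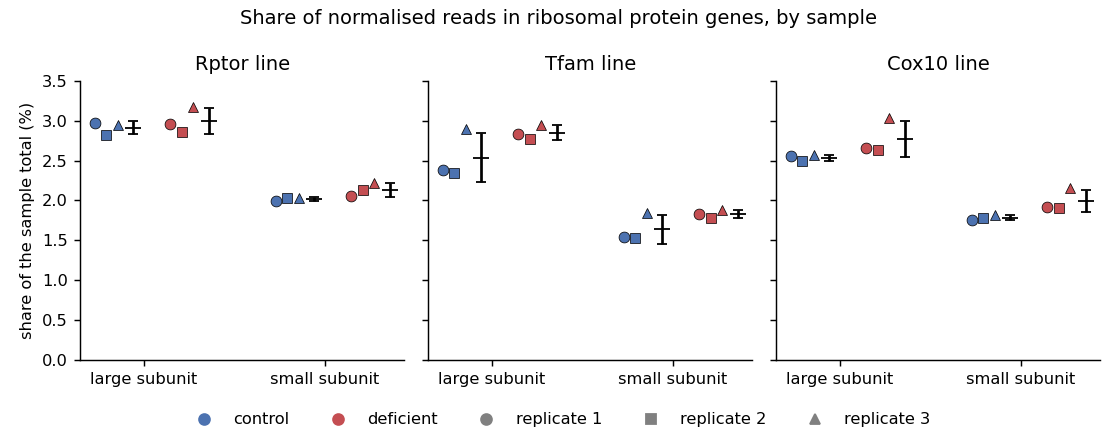
Share of the normalised reads of a sample held by large-subunit and small-subunit genes (y axis, percent) in each line. Points are samples, shapes give the replicate number and bars the mean ± SD (n = 3). Control replicate 3 of the Tfam line (2.89% and 1.85%) lies among the deficient lungs, and deficient replicate 3 of the Cox10 line (3.04% and 2.16%) lies above all other samples of its line.

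Cox10-deficient lungs were compared in the same way. The median log2 fold change of the members was 0.11, against 0.0014 over all genes, and 70 of 73 were positive, where 50.4% of all 14937 genes were. None passed at an adjusted p below 0.05 in limma, where 0.475% of all genes passed, 0.141% as higher and 0.335% as lower. An unadjusted p below 0.05 was reached by 8 members, all higher, where 13% of all genes reached it and 6.4% as higher. The members held 4.31%, 4.27% and 4.39% of the total in controls and 4.58%, 4.54% and 5.20% in Cox10-deficient lungs, without overlap. For 17 members single values did not overlap either, and for 21.3% of all genes. Deficient replicate 3 stood apart and was the highest of the deficient lungs for 66 of 73 members, and for 40.1% of all genes. Its epithelial and endothelial markers also summed to the highest values of the deficient lungs, 30588 and 28605, against 21166 and 24705 for epithelial and 19757 and 18171 for endothelial markers in the other 2. Mesenchymal and macrophage sums were also highest there (235124 and 2606, against at most 196337 and 1890), and the erythroid sum was lowest (29285, against 52790 and 49012). Without this sample the median was 0.048, 59 of 73 were positive and none passed in limma, where 1.72% of all genes passed. Rps25 had 12208, 11589 and 12688 in controls and 13637, 13800 and 16968 in Cox10-deficient lungs (log2 fold change 0.28, SE 0.089; adjusted p in limma = 0.29), higher in deficient lungs without overlap but short of the threshold.

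In the 3 lines together, 47 members had a positive log2 fold change in every line, where 26.3% of the 14550 genes tested in all lines did, and 1 was negative in every line, where 25.6% did. The signs depended on single samples. Without Rptor deficient replicate 3, 35 of 73 members were positive in the Rptor line, against 48 with all samples. Without Cox10 deficient replicate 3, 59 were positive in the Cox10 line, against 70. Effects were then compared between lines by direct tests of the difference. Between the Rptor and the Tfam line 2 of 73 differed (11.2% of all genes), between the Rptor and the Cox10 line 2 (7.48%), and between the Tfam and the Cox10 line 0 (0.055%; 1 at an unadjusted p below 0.05, limma). Rps27l had an effect 0.44 lower on the log2 scale in the Rptor than in the Tfam line (difference -0.44, SE 0.12; adjusted p in limma = 0.026) and 0.42 lower than in the Cox10 line (difference -0.42, SE 0.12; adjusted p in limma = 0.038). Rpl34 differed between the Rptor and the Tfam line by -0.68 (SE 0.19; adjusted p in limma = 0.031), and Rps25 between the Rptor and the Cox10 line by -0.45 (SE 0.12; adjusted p in limma = 0.025). With the replicate number as a block in all lines, 8 members differed between the Rptor and the Tfam line (15.9% of all genes) and 6 between the Rptor and the Cox10 line (10% of all genes). These 14 differences were all negative and included the 4 above. Only samples of the Rptor line were paired by replicate number. The 2 unblocked calls of the first pair became 0 without Rptor control replicate 1, Tfam control replicate 1 or 2 or Tfam deficient replicate 3 1 without Rptor control replicate 2, Rptor deficient replicate 1 or Tfam deficient replicate 2, and 22 without Tfam control replicate 3, where 15.6% of all genes differed. Those of the second pair became 0 without Rptor control replicate 1 or Cox10 control replicate 1 or 2, and 1 without Rptor control replicate 2 or 3, Cox10 control replicate 3 or any 1 Rptor-deficient lung.

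The large and the small subunit were compared in each line. The median log2 fold change of the 44 large-subunit and the 29 small-subunit genes was 0.033 and 0.031 (Rptor line), 0.18 and 0.20 (Tfam line) and 0.12 and 0.11 (Cox10 line). The mean log2 level of the large minus that of the small subunit differed between deficient and control lungs by -0.042 (Rptor line), -0.022 (Tfam line) and 0.012 (Cox10 line), and the values of single samples overlapped between the groups in each line. Within groups this measure had an SD of 0.075, 0.041 and 0.029 in the same order. With Rptor deleted 2 large-subunit genes rose and 1 fell, and 3 small-subunit genes rose and 2 fell (34.8% of all genes passed). With the replicate block 3 large-subunit genes were higher and 3 lower, and 6 small-subunit genes were higher and 2 lower, where 38.6% of all genes passed. With the length and GC trend removed 7 of each subunit were higher, 3 large-subunit and 1 small-subunit genes were lower, and 37.2% of all genes passed. By share of reads the small subunit went from 1.99%, 2.04% and 2.03% in controls to 2.05%, 2.14% and 2.22% in Rptor-deficient lungs without overlap, while the large subunit overlapped, at 2.98%, 2.82% and 2.94% against 2.96%, 2.86% and 3.17%.

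Ribosomal protein genes are short, and short transcripts can be recovered unequally between libraries. Of the 73 members, 57 had a median transcript length under 1000 bases. In the Rptor line other genes with transcripts under 500 bases had a median log2 fold change of -0.10 and those of 4000 bases or more one of 0.033, so that short genes were on balance lower in Rptor-deficient lungs. The 10 members under 500 bases had a median of 0.023 and the 47 members from 500 to under 1000 bases one of 0.037, both above the other genes of their lengths (-0.10 and -0.050). In the Tfam line the trend ran the other way and was smaller, from 0.055 under 500 bases to -0.0057 at 4000 or more, while the members stood at 0.30 under 500 bases and 0.16 in the next bin. In the Cox10 line the other genes went from 0.038 to -0.00014, and the members stood at 0.11 and 0.12 in these bins. Among other genes with a mean of at least 1000 the shortest and longest bins stood at -0.16 and -0.0047 (Rptor line), 0.013 and -0.021 (Tfam line) and 0.00088 and -0.011 (Cox10 line), and in the last of these the bins between them were lower still. After each sample's trend on length and GC content had been removed, the median of the members became 0.069 (Rptor line), 0.17 (Tfam line) and 0.10 (Cox10 line). In the Rptor line 14 members then passed as higher and 4 as lower, where 37.2% of all genes passed, and in the Tfam line 3 as higher, where 5.96% passed.

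**Figure D4:**
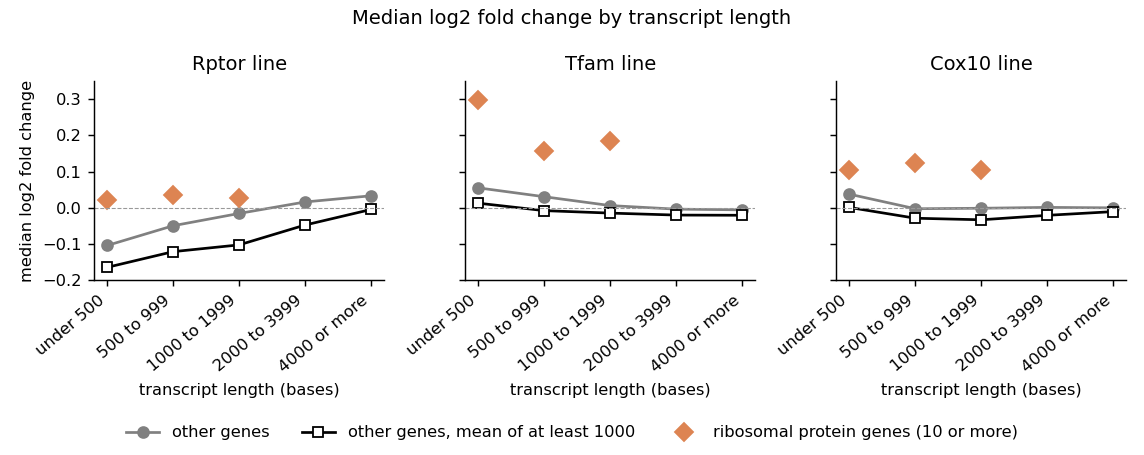
Median log2 fold change (y axis) by median transcript length (x axis, bases) in each line. Grey points are all other genes, open squares other genes with a mean of at least 1000 and orange diamonds the ribosomal protein genes, drawn where a bin holds 10 or more. The diamonds lie above both lines of other genes in every bin shown.

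The samples that stood apart in their ribosomal protein genes also stood apart in short genes as a whole. For each sample the median deviation of genes under 1000 bases minus that of genes of 4000 bases or more was taken, leaving out ribosomal protein genes. It was 0.15 in Tfam control replicate 3, against -0.10 in both other controls and 0.0085, 0.0028 and 0.053 in Tfam-deficient lungs, so that without this control the groups of the Tfam line do not overlap in this measure either. It was 0.12 in Cox10 deficient replicate 3, against -0.037 and -0.067 in the other 2 deficient lungs. In the Rptor line it was 0.079, -0.027 and 0.091 in controls and -0.14, -0.031 and 0.025 in deficient lungs, with deficient replicate 3 the highest of its group in both measures. The part of this shift in the differences between groups was tested only by the removal of the trend given above.

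**Figure D5:**
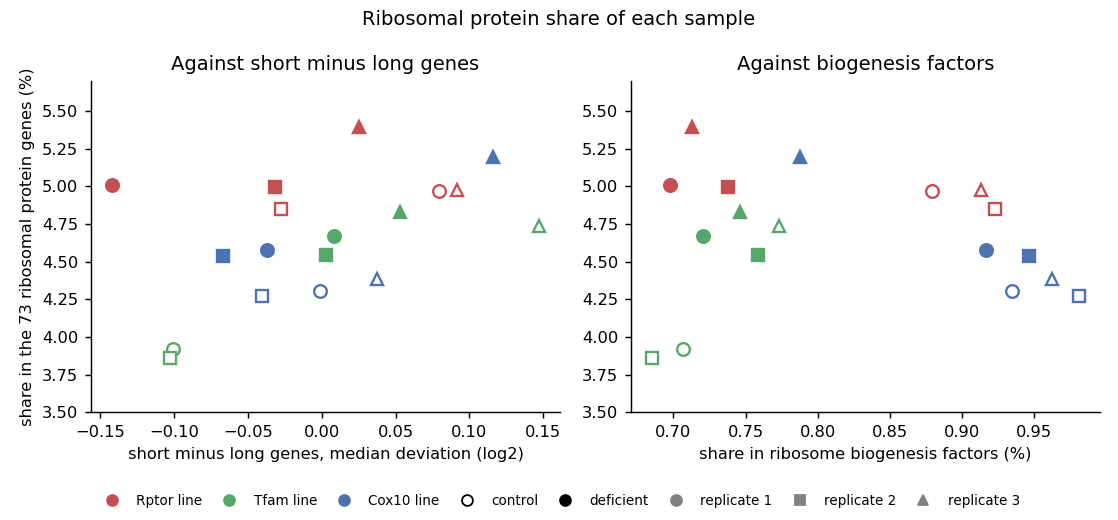
Share of the 73 genes in each of the 18 samples (y axis, percent) against the median log2 deviation of short minus long genes (left) and against the share of ribosome biogenesis factors (right, percent). Colours give the line, open points are controls, filled points deficient lungs and shapes the replicate number. Tfam control replicate 3 lies at the right end of the left panel, and the Rptor-deficient lungs lie left of their controls in the right panel at a higher share.

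The members did not vary alike between replicates. The SD of log2 values within groups had medians over members of 0.090 (Rptor line), 0.17 (Tfam line) and 0.10 (Cox10 line), against 0.081, 0.078 and 0.076 over other genes with a mean of at least 1000. It was over 0.3 for 7, 9 and 7 members, 9.59%, 12.3% and 9.59% of them, against 1.28%, 0.335% and 1.3% of those other genes. Rpl29 was the extreme case, with 2833, 132 and 3213 normalised reads in Rptor line controls and 68.3, 2713 and 3230 in Rptor-deficient lungs. One sample of each group was thus low by more than 10 times, while in the Tfam line all 6 values lay between 6152 and 8243. Rps2 had 26670, 55843 and 39814 in Cox10 line controls and 52629, 58023 and 49975 in deficient lungs, and Rpl17 was over 0.3 in all 3 lines (Rps2 and Rpl17 were chosen after their values were seen). Coding sequences at least 95% identical were found in 27 other annotated genes for Rpl29, 24 for Rps2 and 20 for Rpl17. The 18 members over 0.3 in at least 1 line had a median of 7.5 such genes, and 7 of them had more than 10, while the other 55 had a median of 4, and 6 of them had more than 10. For these 55 the median fold changes were 0.033, 0.18 and 0.11 on the log2 scale, close to those of all 73, and included all 8 members that passed in the Rptor line.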

How the data were processed

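Whole-lung RNA was sequenced, and the authors deposited 1 table per line with a normalised read signal per gene and sample. The submitters' processing notes name Trim Galore, HISAT2, featureCounts, DESeq2 and the mm10 build, with versions not given in the sources used here. All deposited signal values were whole multiples of 1 step per sample, so they appear to be reads divided by a size factor. The tables also hold the authors' fold changes and p-values, which were not used. Samples were grouped by genotype label. Genes with at least 10 normalised reads in at least 3 of 6 samples were tested on log2(value + 1) with limma 3.58.1 (R 4.3.3, moderated with an intensity trend), separately in each line, with Benjamini-Hochberg adjustment over all genes tested and a threshold of 0.05. Differences between lines were tested in 1 model of 18 samples. Members and lists were chosen with earlier results of these data known. Genes named were, by rule, the 5 largest rises and falls among members past the threshold in each line, Rps6, the stalk, 5S, ubiquitin-fusion and restricted paralogue genes, the highest and lowest member, those nearest the mean of 50, and the 2 largest rises and falls past the threshold in each other list. Lengths were matched for 23027 of 23420 genes. Coding sequences were compared with blastn 2.17.0. Same-numbered samples of the Rptor line deviated together (correlations of deviations 0.221, 0.330 and 0.259), which pairs them. This came from the data. The study used littermate controls, but no source used here ties a number to a litter or day. Alternatives changed the scaling, filter, pseudocount, block, covariates, length and GC trend, threshold and samples.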

Additional observations from a re-analysis of the deposited data

Results flagged for a closer look

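Differences between lines in the effect of a deletion were found for 3 ribosomal protein genes by a test of the difference itself. The effect on Rpl34 was lower in the Rptor than in the Tfam line (difference -0.68 on the log2 scale, SE 0.19; adjusted p in limma = 0.031). Rpl34 had table means of only 156 and 86.3 normalised reads in these lines, and its level is uncertain. The effect on Rps27l was lower in the Rptor than in the Tfam line (difference -0.44, SE 0.12; adjusted p in limma = 0.026) and than in the Cox10 line (difference -0.42, SE 0.12; adjusted p in limma = 0.038). The effect on Rps25 was lower in the Rptor than in the Cox10 line (difference -0.45, SE 0.12; adjusted p in limma = 0.025). These are 2 of 73 members between the Rptor and Tfam lines and 2 between the Rptor and Cox10 lines, smaller shares than the 11.2% and 7.48% of all genes. Without 1 sample the counts ran from 0 to 22 and from 0 to 2, and with the replicate block they were 8 and 6 (15.9% and 10% of all genes).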

How the results depend on the processing

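The medians over the members moved by less than the spread between samples in every alternative run, while counts of calls moved more, and the cause was not tested. In the Rptor line the 5 higher and 3 lower members became 9 and 5 with the replicate block. The higher members became 10 with Xist as a covariate, 14 with the length and GC trend removed (14 also with the block), 2 at an adjusted p below 0.01 and 11 at an unadjusted p below 0.05. Of all genes 38.6% passed with the replicate block, 30.2% with Xist, 37.2% with the trend removed and 40.3% with that and the block. At an unadjusted p below 0.05 it was 45.6%, 22.3% as higher. The lower members became 5 with a mean of at least 50 (37.8% of all genes passed) and 7 at an unadjusted p below 0.05. Leaving out 1 sample gave 2 to 6 higher and 2 to 7 lower, where 24% to 36% of all genes passed. In the Tfam line the count of 0 higher members became 11 with the replicate block, 1 with Xist, 3 with the length and GC trend removed, 14 with that and the block, 14 at an unadjusted p below 0.05, 0 to 39 without 1 sample and 32 without control replicate 3 with the length and GC trend removed. The shares of all genes that passed were, in the same order, 5.33%, 5.67%, 5.96%, 7.39%, 17.4% (8.29% as higher), 2.37% to 7.46% and 9.51%. Same-numbered samples of the Tfam line (correlations -0.312, -0.207 and 0.151) and the Cox10 line (0.447, 0.202 and 0.0488) were not paired by this check. In the Cox10 line the 0 higher became 1 with Xist (0.783% of all genes passed) and 8 at an unadjusted p below 0.05 (13%, 6.4% as higher). The 2 members that differed between the Rptor and Tfam lines became 8 with the replicate block, 7 with the trend removed and the block, and 0 to 22 without 1 sample. The 2 between the Rptor and Cox10 lines became 6, 4 and 0 to 2, and 1 with Xist.

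Over all 73 members, leaving out Cox10 deficient replicate 3 turned the sign of 13 and leaving out Tfam control replicate 3 that of 1, while removing the length and GC trend turned 3 (Rptor line), 2 (Tfam line) and 2 (Cox10 line), none of them past the threshold before or after. Among the genes named by rule, Rps6 in the Rptor line was 0.0068 with library totals, 0.0042 with Xist and 0.047 with the length and GC trend removed (0.047 with the block), and -0.032 to 0.022 without 1 sample. Without 1 sample Rplp0 ranged from -0.083 to 0.032 and Rpl12 from -0.019 to 0.053 in the Rptor line, and Rplp1 from -0.015 to 0.12, Rpl11 from -0.028 to 0.11 and Rps27a from -0.21 to 0.19 in the Cox10 line. Rps27a in the Tfam line was -0.026 with the length and GC trend removed, with or without the block, and -0.17 to 0.12 without 1 sample. The large minus small difference of medians ran from -0.0097 to 0.0025 (Rptor line, all samples). Without 1 sample it ran from -0.031 to 0.0093 (Rptor line), -0.049 to 0.012 (Tfam line) and -0.0087 to 0.010 (Cox10 line). The Rptor line median ran from -0.016 to 0.066 without 1 sample. A count model in edgeR was not run. With 3 samples per group small changes may be missed, and the depth in reads is known only up to the size factor.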
